A study of Schizosaccharomyces pombe with 9 samples.

Results

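The genes described here encode subunits of protein phosphatase 2A (PP2A) and of a PP2A-like phosphatase of fission yeast, *Schizosaccharomyces pombe*. Members were the probe sets whose *S. pombe* symbol in the array annotation was *pab1*, *ppa1*, *ppa2*, *paa1*, *par1*, *par2*, *ekc1*, *ypa1* or *ypa2*. Of these 9 genes, 7 had a named probe set, out of 2899 *S. pombe* genes that had one. *ypa1*+ and *ypa2*+, which encode PP2A activator proteins, had none and were not analysed here. Symbols were matched through gene IDs, since *pab1* is also an old name of the poly(A)-binding protein gene *pabp*+ and *par1* of the gene *rpm1*+. *pab1*+ is SPAC227.07c here and *par1*+ is SPCC188.02.

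Transcript levels were measured on 9 Affymetrix expression arrays, 1 for each of 8 deletions and 1 for wild type (WT), with cells harvested while growing exponentially (OD600 between 0.5 and 1.0) and no agent applied. The deletions were *pab1*Δ, *sec65*Δ, *meu29*Δ, *sgf73*Δ, *ash2*Δ, *SPBC2A9.02*Δ, *SPAC3F10.17*Δ and *SPAC27D7.08c*Δ, taken from a screen for sensitivity to DNA damage. The study compared each deletion with WT. The labels describe WT as the diploid strain SP286, h+, with the alleles ade6-M210, ura4-D18 and leu1-32, whereas the study's deletion library is haploid. The labels give no ploidy or marker alleles for the deletion strains, so that deletion and strain background cannot be told apart.

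PP2A is a serine/threonine phosphatase built from a catalytic subunit, a scaffold and one of several regulatory subunits, which choose the substrates. In *S. pombe*, *ppa1*+ and *ppa2*+ encode catalytic subunits and *paa1*+ the scaffold. *pab1*+ encodes the B55-type regulatory subunit, and *par1*+ and *par2*+ the B56-type (B′) regulatory subunits. *ekc1*+ encodes a SAPS-domain protein that binds Ppe1, the catalytic subunit of a PP6-type phosphatase. PP2A is known for restraining entry into mitosis and, through Pab1 and Par1, for opposing the septation initiation network, the signalling cascade that starts division of the cell.

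All values are log2 signals as deposited, or differences of these from WT (log2 ratios). The 7 transcripts lay at least 4.31 log2 units above background on every array, background being the 95th percentile of 2593 probe sets of *S. cerevisiae* on the same array. Of the *S. cerevisiae* list of PP2A-related genes (for example *PPG1*, *RRD1* and *TAP42*), 8 of 21 had a named probe set, and all 8 lay below that background on all 9 arrays. These 8 are among the 2593 probe sets that set the background. By definition 95% of those lie below it on each array, so this is no independent check. With 1 array per genotype, no value here has a replicate, no p-value was computed, and precision is limited by the number of arrays. As a scale, the 2 arrays closest to each other, the *pab1*Δ-labelled and *sec65*Δ-labelled ones, differed by less than 0.27 log2 units for 95% of 2884 genes, and the median gene by 0.066. That scale includes the difference between 2 genotypes and is not a replicate error. In bulk RNA, fewer cells that hold a transcript and less of it per cell cannot be told apart.

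PP2A transcripts differed little from WT. Of 56 ratios (7 transcripts in 8 deletions), 0 were at least 2 or at most 0.5, where 2.92% of all ratios of named genes were. At 1.5-fold there was 1, the ratio of *pab1*+ in the *pab1*Δ-labelled array, where 9.5% of all ratios were. At 1.25-fold, a threshold chosen after the values had been seen, there were 7, where 25.7% of all ratios were. Of these, 2 were higher, where 14.1% of all ratios were, and 5 lower, where 11.6% were. They were *ppa1*+ in *SPAC3F10.17*Δ and *SPAC27D7.08c*Δ, *pab1*+ in the *pab1*Δ-labelled array and in *sgf73*Δ, *par2*+ in *SPBC2A9.02*Δ and *meu29*Δ, and *ekc1*+ in *meu29*Δ. The median size of a log2 ratio was 0.15 for these transcripts and 0.17 over all genes. Of the 56 ratios, 34 lay above WT and 22 below. Over all genes, the share above WT ran from 43.8% in *SPBC2A9.02*Δ to 60.4% in *SPAC3F10.17*Δ.

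**Figure D1:**
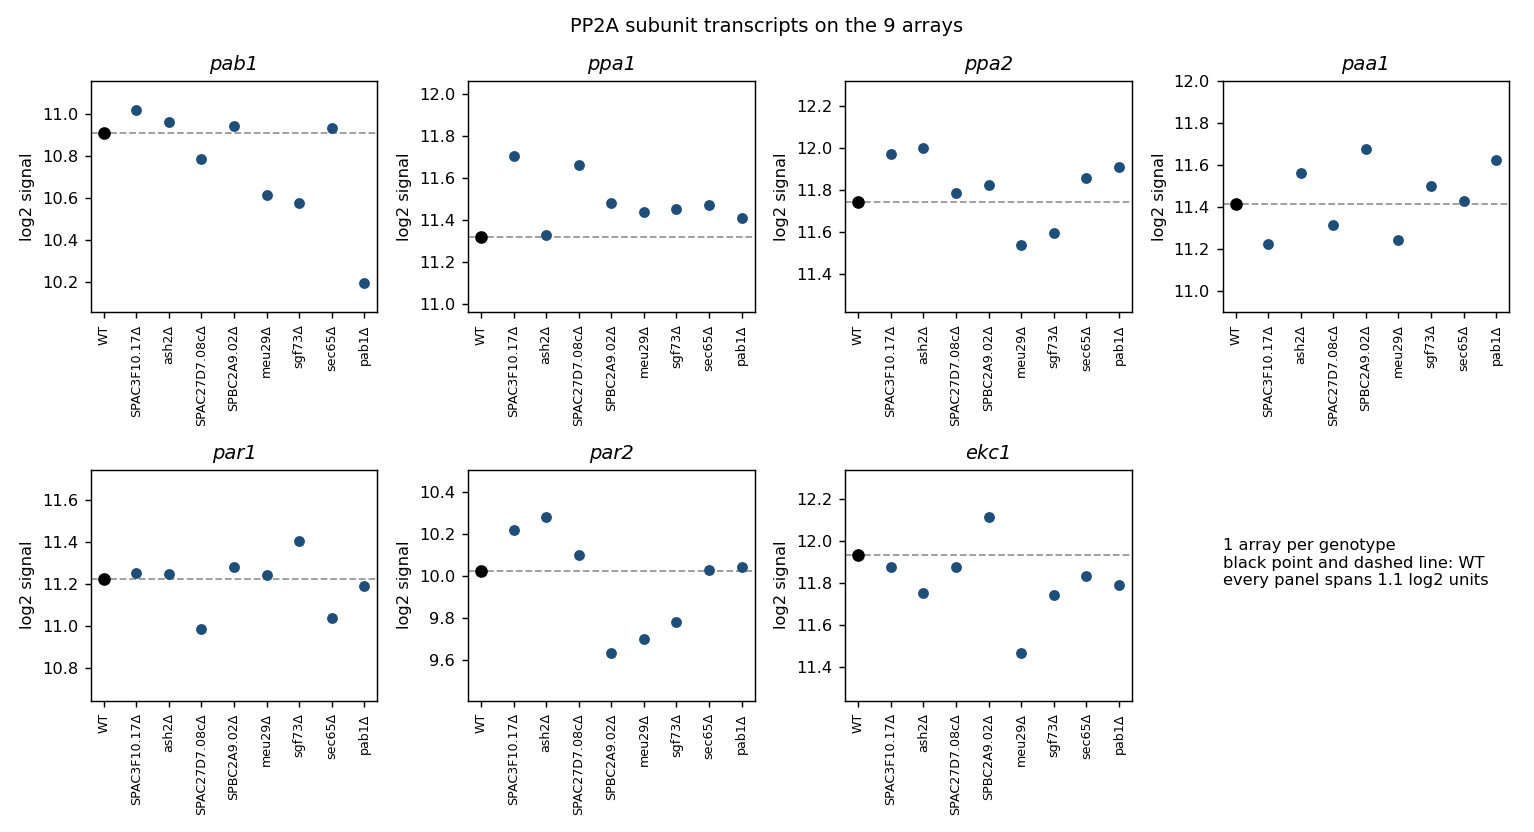
Log2 signal (vertical axis) of the 7 PP2A transcripts on the 9 arrays (horizontal axis), 1 point per array, with WT as a black point and dashed line. Each panel spans the same number of log2 units, so that spreads can be compared while levels cannot; *pab1*+ spans 0.83 log2 units and *ppa1*+ 0.38.

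*pab1*+ had the widest spread of the 7 transcripts, and the *pab1*Δ-labelled array held its lowest signal. The log2 signal of *pab1*+ was 10.91 in WT, 11.02 in *SPAC3F10.17*Δ, 10.96 in *ash2*Δ, 10.78 in *SPAC27D7.08c*Δ, 10.94 in *SPBC2A9.02*Δ, 10.61 in *meu29*Δ, 10.57 in *sgf73*Δ, 10.93 in the *sec65*Δ-labelled array and 10.19 in the *pab1*Δ-labelled array. It lay at most 0.11 log2 units above WT, *meu29*Δ and *sgf73*Δ lay 0.30 and 0.34 below it, and the *pab1*Δ-labelled array stood lower than all others. The range of 0.83 log2 units ranked 883 among 2884 genes, so that 69.4% of them had a smaller range.

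In the *pab1*Δ-labelled array the *pab1*+ transcript was thus not lost. Its ratio to WT was 0.609, and its signal of 1170 stood far above the background of 36.2 to 40.2. The *pab1*+ ratio in the other 7 deletions ran from 0.793 in *sgf73*Δ to 1.08 in *SPAC3F10.17*Δ. In that array, *pab1*+ ranked 42 from the lowest ratio of 2870 genes, and 2.26% of the genes were at least 1.5-fold lower. Set against the median of the other 7 deletions in place of WT, *pab1*+ stood at 0.599 and ranked 10 from the lowest of 2884. The targeted transcript of the *sec65*Δ-labelled array was not lost either, with *sec65*+ at 0.679 of WT there. By contrast, *sgf73*+ was 33.8-fold lower in *sgf73*Δ, *meu29*+ was 12.6-fold lower in *meu29*Δ, and *ash2*+ was at least 23.0-fold lower in *ash2*Δ, where it was at background. The sources used here do not give the position of the *pab1*+ probes relative to the deleted part, and whether either array holds RNA of the labelled strain alone was not tested. Both arrays are therefore named by their labels, and their values are those of the labelled arrays, not of a strain shown to lack the gene.

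**Figure D2:**
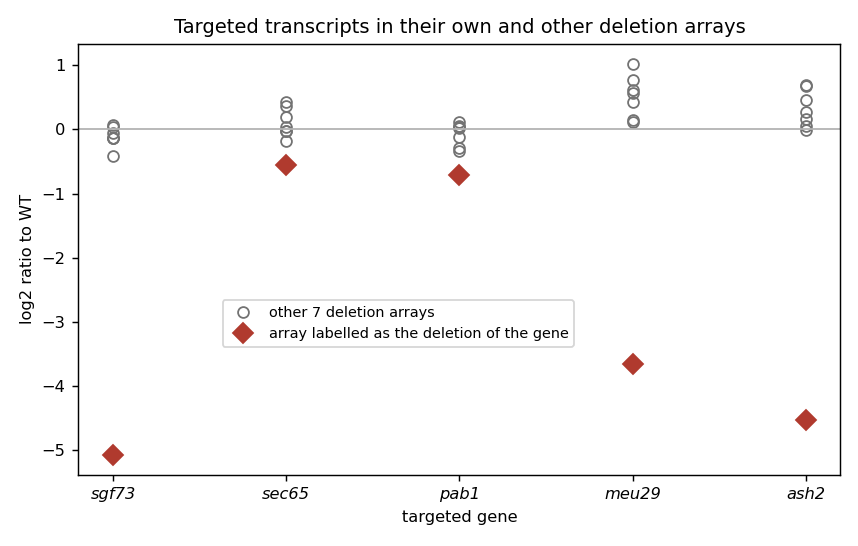
Log2 ratio to WT (vertical axis) of the 5 targeted genes with a named probe set (horizontal axis), in the array labelled as the deletion of that gene (red diamonds) and in the other 7 deletion arrays (open circles). The red diamond of *pab1*+ lies at -0.72 and that of *sec65*+ at -0.56, whereas those of *sgf73*+, *meu29*+ and *ash2*+ lie between -5.08 and -3.66; that of *ash2*+ is drawn at the background floor.

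The *pab1*Δ-labelled and *sec65*Δ-labelled arrays could also be set directly against each other, a comparison that does not use WT and was added after the values had been seen. *pab1*+ was 0.74 log2 units lower in the *pab1*Δ-labelled array than in the *sec65*Δ-labelled array. This was the 9th largest difference in that direction among 2884 genes. For *pab1*+ it is the same difference as that from the median of the other 7 deletions, because the *sec65*Δ-labelled array held that median. In the opposite direction *sec65*+ was 0.59 log2 units lower in the *sec65*Δ-labelled array, the 7th largest. Each of the 2 targeted transcripts was therefore lower in the array labelled for it, and neither was lost there. None of the other 6 PP2A transcripts differed by more than 0.19 log2 units between these arrays. The largest of those differences was that of *paa1*+, at 11.62 in the *pab1*Δ-labelled array and 11.43 in the other, which ranked 314 by size.

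In the *pab1*Δ-labelled array, the ratios of the other 6 members lay between 0.906 and 1.16. The scaffold gene *paa1*+ was at 1.16 of its WT level and the catalytic subunit gene *ppa2*+ at 1.12. *ppa1*+ was at 1.06, *par2*+ at 1.01, *par1*+ at 0.978 and *ekc1*+ at 0.906. In this array 14.9% of all genes were past 1.25-fold and none of these 6 was. The member median was 0.018 log2 units and that over all genes 0.019. Without regard to sign, the median size of a log2 ratio was 0.14 for the members, *pab1*+ included, and 0.12 over all genes. A larger change than that of *paa1*+ was seen in 30.0% of genes.

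**Figure D3:**
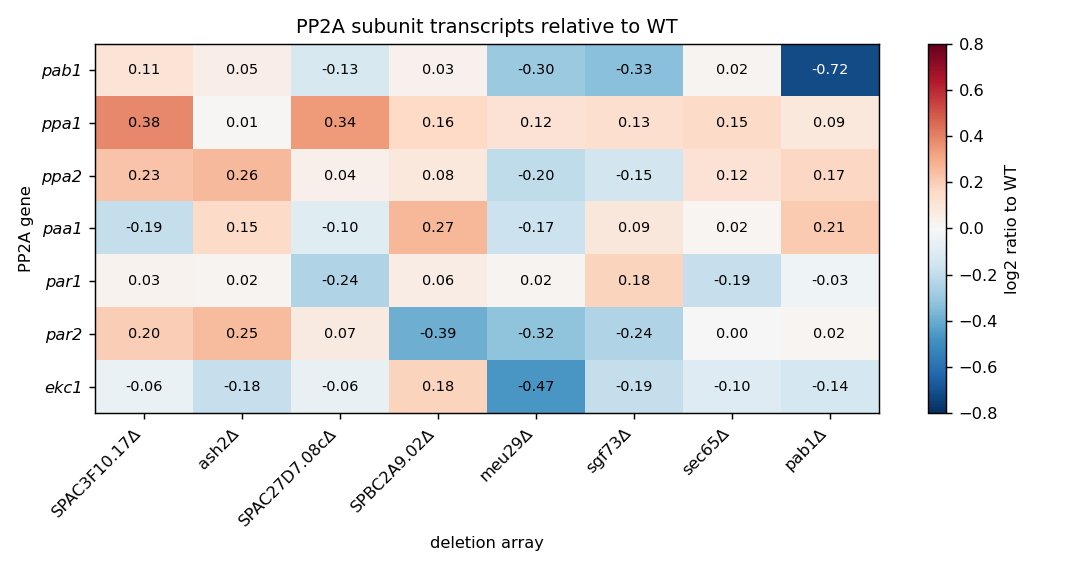
Log2 ratio to WT of each PP2A transcript (rows) in each deletion array (columns), with red above WT and blue below. The darkest cell is *pab1*+ in the *pab1*Δ-labelled array, at -0.72, and the row of *ppa1*+ is the only one with no value below 0.

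The catalytic subunit gene *ppa1*+ lay above WT in all 8 deletions. On the log2 scale *ppa1*+ was at 11.32 in WT, 11.70 in *SPAC3F10.17*Δ, 11.33 in *ash2*Δ, 11.66 in *SPAC27D7.08c*Δ, 11.48 in *SPBC2A9.02*Δ, 11.44 in *meu29*Δ, 11.45 in *sgf73*Δ, 11.47 in the *sec65*Δ-labelled array and 11.41 in the *pab1*Δ-labelled array. *SPAC3F10.17*Δ and *SPAC27D7.08c*Δ stood above the rest, with *ppa1*+ ratios of 1.30 and 1.27, and the other 6 lay between 1.01 and 1.12. Of 2860 genes measured in all comparisons, 8.85% lay above WT in all 8 deletions. The 8 ratios share the WT array, where *ppa1*+ was at its lowest. The range of *ppa1*+, 0.38 log2 units, was the smallest of the 7 members, and 19.5% of genes had a smaller one.

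*ppa2*+, the other catalytic subunit gene, lay below WT in *meu29*Δ and *sgf73*Δ and above it in the other 6 deletions. Its log2 signal was 11.74 in WT, 11.97 in *SPAC3F10.17*Δ, 12.00 in *ash2*Δ, 11.79 in *SPAC27D7.08c*Δ, 11.83 in *SPBC2A9.02*Δ, 11.54 in *meu29*Δ, 11.60 in *sgf73*Δ, 11.86 in the *sec65*Δ-labelled array and 11.91 in the *pab1*Δ-labelled array. The lowest ratio was 0.868 in *meu29*Δ and the highest 1.20 in *ash2*Δ. In *ash2*Δ *ppa2*+ stood at its highest and *ppa1*+ at its lowest among the deletions, and the correlation of their log2 signals over the 9 arrays was 0.13. This value rested on single arrays, since it was -0.18 without *SPAC3F10.17*Δ and 0.41 without *ash2*Δ.

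The scaffold gene *paa1*+ had log2 signals of 11.41 in WT, 11.22 in *SPAC3F10.17*Δ, 11.56 in *ash2*Δ, 11.32 in *SPAC27D7.08c*Δ, 11.68 in *SPBC2A9.02*Δ, 11.24 in *meu29*Δ, 11.50 in *sgf73*Δ, 11.43 in the *sec65*Δ-labelled array and 11.62 in the *pab1*Δ-labelled array. Of the deletions, 5 lay above WT and 3 below. Its ratios ran from 0.876 in *SPAC3F10.17*Δ to 1.20 in *SPBC2A9.02*Δ. *SPAC3F10.17*Δ thus held the lowest signal of the scaffold gene and the highest of *ppa1*+. With arrays scaled to a common median, *ppa1*+ was highest in *SPAC27D7.08c*Δ instead. Over the 9 arrays, *paa1*+ and *ppa1*+ had the lowest correlation of the 21 pairs of members, at -0.53. With 1 array left out at a time, that correlation lay between -0.66 and -0.31, the latter without *SPAC3F10.17*Δ.

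Of the B56-type regulatory subunit genes, *par1*+ stayed close to WT in most arrays. Its log2 signal was 11.22 in WT, 11.25 in *SPAC3F10.17*Δ, 11.25 in *ash2*Δ, 10.98 in *SPAC27D7.08c*Δ, 11.28 in *SPBC2A9.02*Δ, 11.24 in *meu29*Δ, 11.40 in *sgf73*Δ, 11.04 in the *sec65*Δ-labelled array and 11.19 in the *pab1*Δ-labelled array. The *sec65*Δ-labelled array and *SPAC27D7.08c*Δ were the low ones, at ratios of 0.879 and 0.847, and *sgf73*Δ was the high one, at 1.13.

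*par2*+ varied more. Signals of *par2*+ on the log2 scale were 10.03 in WT, 10.22 in *SPAC3F10.17*Δ, 10.28 in *ash2*Δ, 10.10 in *SPAC27D7.08c*Δ, 9.63 in *SPBC2A9.02*Δ, 9.70 in *meu29*Δ, 9.78 in *sgf73*Δ, 10.03 in the *sec65*Δ-labelled array and 10.04 in the *pab1*Δ-labelled array. The low signals of *par2*+ came from 3 deletions, *sgf73*Δ at a ratio of 0.845, *meu29*Δ at 0.798 and *SPBC2A9.02*Δ at 0.763. Its highest ratio was 1.19 in *ash2*Δ. In *SPBC2A9.02*Δ 6.91% of genes had a lower ratio than *par2*+. In *sgf73*Δ *par1*+ was at its highest and *par2*+ below WT. The signals of these B56-type genes had a correlation of -0.38 over the 9 arrays, which was -0.25 without *sgf73*Δ and -0.51 without *ash2*Δ.

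The *par2*+ pattern lay closest to that of *ppa2*+. Their log2 signals had a correlation of 0.74 over the 9 arrays, the highest of the 21 pairs of members. Both were highest in *ash2*Δ, next in *SPAC3F10.17*Δ, and below WT in *meu29*Δ and *sgf73*Δ. The exception was *SPBC2A9.02*Δ, where *par2*+ was at its lowest and *ppa2*+ lay at 1.06 of WT. Without that array the correlation was 0.94, and without *meu29*Δ it was 0.65. How the 9 arrays were normalized is not described, and the correlation is a description of these arrays only.

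*ekc1*+ lay below WT in 7 of the 8 deletions. The log2 signal of *ekc1*+ was 11.94 in WT, 11.88 in *SPAC3F10.17*Δ, 11.75 in *ash2*Δ, 11.88 in *SPAC27D7.08c*Δ, 12.11 in *SPBC2A9.02*Δ, 11.47 in *meu29*Δ, 11.74 in *sgf73*Δ, 11.83 in the *sec65*Δ-labelled array and 11.79 in the *pab1*Δ-labelled array. *meu29*Δ stood lower than all other arrays, at an *ekc1*+ ratio of 0.723, and *SPBC2A9.02*Δ higher than all, at 1.13. The other 6 ratios lay between 0.876 and 0.962. Among 2860 genes, 14.7% lay below WT in at least 7 deletions. The 8 ratios share the WT array, whose *ekc1*+ signal was exceeded only in *SPBC2A9.02*Δ.

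Across deletions, *meu29*Δ had the lowest member median, at -0.20 log2 units, where the median over all genes was 0.064. Of the 7 members, 5 lay below WT there, namely *ekc1*+, *par2*+, *pab1*+, *ppa2*+ and *paa1*+, while 59.8% of all genes lay above it. In *sgf73*Δ the member median was -0.15, beside 0.058 over all genes. Of the 7 members, 4 lay below WT there and 3 above, while 56.8% of all genes lay above it. The 4 were *ekc1*+, *par2*+, *pab1*+ and *ppa2*+. *meu29*Δ and *sgf73*Δ were also the deletions with the most changed genes, since 38.6% of genes in *meu29*Δ and 41.3% in *sgf73*Δ were past 1.25-fold. In the other 6 deletions the member median lay between -0.057 in *SPAC27D7.08c*Δ and 0.11 in *SPAC3F10.17*Δ. Sizes of these medians depended on the processing, with -0.32 in *meu29*Δ and -0.090 in *sgf73*Δ against the other 7 deletions in place of WT. With arrays scaled to a common median, *SPAC3F10.17*Δ was at 0.036 and no longer the highest. Most members lay above WT in *ash2*Δ and *SPBC2A9.02*Δ, with 6 of 7 in each, where 48.1% and 43.8% of all genes did. Several of these log2 ratios were small. In *ash2*Δ *ppa1*+ was at 0.0083, *par1*+ at 0.024 and *pab1*+ at 0.051, and in *SPBC2A9.02*Δ *pab1*+ was at 0.0325 and *par1*+ at 0.059. All of these lay within 0.066, the difference of the median gene between the 2 closest arrays.

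Among genes whose products work with these subunits, *ppe1*+ varied more than any PP2A member. It encodes the catalytic subunit that Ekc1 binds. The log2 signal of *ppe1*+ was 9.80 in WT, 10.62 in *SPAC3F10.17*Δ, 10.59 in *ash2*Δ, 9.78 in *SPAC27D7.08c*Δ, 10.73 in *SPBC2A9.02*Δ, 9.54 in *meu29*Δ, 10.41 in *sgf73*Δ and 9.90 in the *sec65*Δ-labelled array, and the *pab1*Δ-labelled array stood 0.37 log2 units above WT. In 4 deletions it was at least 1.5-fold above WT, where 4.95% of all ratios were, up to a *ppe1*+ ratio of 1.91 in *SPBC2A9.02*Δ, where that of *ekc1*+ was also highest. Both were lowest in *meu29*Δ. The correlation of *ppe1*+ and *ekc1*+ was 0.49 over the 9 arrays and fell to 0.14 without *meu29*Δ.

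*igo1*+, which encodes the endosulfine that inhibits PP2A-B55 when phosphorylated, lay below WT in all 8 deletions, at log2 ratios of -0.44 in *meu29*Δ to -0.041 in *ash2*Δ. Of 2860 genes, 5.66% lay below WT in all 8. The 8 ratios share the WT array, where *igo1*+ was at its highest. *tip41*+, whose product is a PP2A-associated protein of the TOR pathway, was at 0.660 of WT in *ash2*Δ, and the other log2 ratios of *tip41*+ lay between -0.20 and 0.040. *zds1*+, whose budding yeast relatives bind PP2A, had log2 ratios of -0.19 to 0.26. These 4 were the genes of a list of 13 PP2A-like phosphatases and PP2A adaptors that had a named probe set, and of their 32 ratios 4 were at least 1.5-fold higher, all of *ppe1*+, and 1 lower, where 4.95% and 4.55% of all ratios were.

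**Figure D4:**
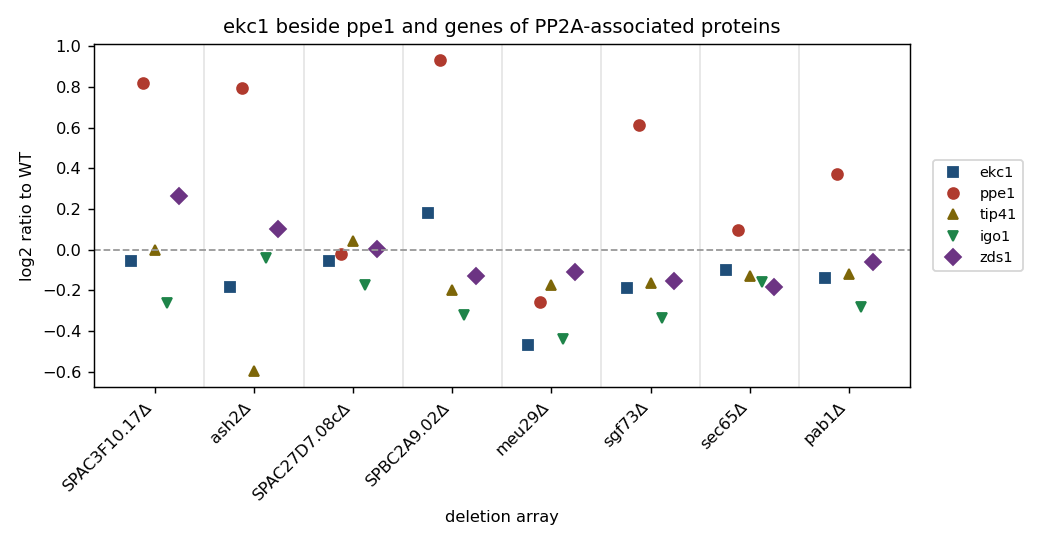
Log2 ratio to WT (vertical axis) of *ekc1*+ and of the 4 named genes of PP2A-like phosphatases and PP2A adaptors in each deletion array (horizontal axis), 1 point per gene and array. *ppe1*+ reaches 0.94 in *SPBC2A9.02*Δ, while *ekc1*+ stays between -0.47 and 0.18.

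Other phosphatases and the pathways on which PP2A acts were described by counts at 1.5-fold, to be read beside 4.95% of all ratios higher and 4.55% lower. Of 11 named genes of PP1 and other serine/threonine phosphatases (88 ratios), 3 ratios were higher and 2 lower. The extremes were *clp1*+, a Cdc14-type phosphatase gene, at 2.29 in *SPAC3F10.17*Δ, and *ptc1*+, a PP2C-type phosphatase gene, at 0.472 in *meu29*Δ. In the *pab1*Δ-labelled array none of these 11 was past 1.5-fold, where 4.39% of all genes were.

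For 18 genes of mitotic entry and of the Greatwall-endosulfine branch, 8 of 140 ratios were higher and 7 lower. The highest was *mik1*+, a kinase gene that restrains Cdc2, at least 2.49-fold above WT in *sgf73*Δ, since its WT signal was at background. It was also the 1 gene of this list past 1.5-fold in the *pab1*Δ-labelled array, at least 0.79 log2 units above WT. *ppk18*+, a Greatwall-type kinase gene, was lowest at a ratio of 0.499 in *SPAC3F10.17*Δ. For 15 genes of the septation initiation network and its regulators, 2 of 120 ratios were higher and 5 lower. *sid4*+, a spindle pole scaffold gene, was highest at 1.75 in *sgf73*Δ, and *plo1*+, the Polo kinase gene, lowest at 0.521 in *meu29*Δ. None of the 15 was past 1.5-fold in the *pab1*Δ-labelled array, where their median log2 ratio was -0.014. *igo1*+, *plo1*+ and *fin1*+ are in 2 of these lists each.

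The genes whose signals were most like those of *pab1*+ over the 9 arrays were searched among 1837 genes above background on all arrays and with a range of at least 0.5 log2 units. They were *prt2*+, at a correlation of 0.76, *sfc4*+ at 0.69, *tco1*+ at 0.68, *azr1*+ at 0.65 and *pof4*+ at 0.65. The *prt2*+ signal was lowest in the *pab1*Δ-labelled array, at 9.05, next in *sgf73*Δ, at 9.11, and its correlation was 0.55 without the *pab1*Δ-labelled array. For *ekc1*+, which had the next widest range and was added after the values had been seen, they were *gpa2*+ at 0.90, *idh1*+ at 0.87, *fhl1*+ at 0.86, *win1*+ at 0.84 and *nep2*+ at 0.84. Each of these was lowest in *meu29*Δ, as *ekc1*+ was, and no correlation without that array was computed for them. In both searches the values are high by selection, being the highest of 1837 correlations over 9 arrays. *gpa2*+, which encodes a G-protein alpha subunit, ran from 9.29 in *meu29*Δ to 11.37 in *SPBC2A9.02*Δ, the same arrays that held the lowest and highest signal of *ekc1*+.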

How the data were processed

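The deposited values were log2 signals of 9 Affymetrix Yeast Genome 2.0 arrays. According to the study, a company analysed its array data. The processing notes name MAS5 without its role, and no source used here describes the normalization or its scaling target. Column medians ran from 5.06 to 5.15, and for the main results the values were used as deposited. Of 10928 probe sets, 2917 were matched by gene ID or symbol to 2899 *S. pombe* genes of the assembly ASM294v3, which was used for names only. For genes with more than 1 probe set a single one was kept, preferring gene-specific types and then the brighter on average. Signals below background (36.2 to 40.2 by array, the 95th percentile of the signals of 2593 *S. cerevisiae* probe sets) were raised to it before a ratio was taken, and ratios were kept for genes above it on 1 array or both. Between 2855 and 2872 genes did on an array.

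The members and lists were chosen with earlier results of these data known. Genes were named by rule, namely all members, the targeted genes, the PP2A-like and adaptor list, the extremes of the other lists and their members past 1.5-fold in the *pab1*Δ-labelled array, and the 5 genes most like *pab1*+. No test was run, since each genotype had 1 array. Ratios were counted at 2-fold and 1.5-fold. Counting at 2-fold was tested on simulated data, and counting at 1.5-fold or 1.25-fold was not. Alternatives used quantile normalization or median scaling, background at a 99th percentile or no floor, a pseudocount of 50, the other 7 deletions as the reference, and probe sets averaged by gene. Added later were a 1.25-fold threshold, counts that leave out the *pab1*Δ-labelled and *sec65*Δ-labelled arrays, the direct comparison of these 2 arrays and correlations with 1 array left out. Python 3.11.15, numpy 2.4.6, pandas 2.3.3 and matplotlib 3.10.9 were used.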

Additional observations from a re-analysis of the deposited data

How the results depend on the processing

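Under the 7 alternative ways of processing the values, the count of PP2A ratios past 2-fold stayed at 0 and that past 1.5-fold at 1. The count past 1.25-fold was 5 with quantile normalization and with the other 7 deletions as the reference, 6 with a pseudocount of 50, and 7 otherwise. An equal count did not always mean the same ratios. With median scaling, *ppa1*+ in *SPAC3F10.17*Δ fell short of 1.25-fold and *pab1*+ in *meu29*Δ passed it. When the *pab1*Δ-labelled and *sec65*Δ-labelled arrays were left out, which was decided once the values were known, 0 ratios were past 1.5-fold and 6 past 1.25-fold, since the 1 ratio past 1.5-fold came from the array left out. The log2 ratio of *pab1*+ in the *pab1*Δ-labelled array lay between -0.74 and -0.69 under these alternatives. Of 62 recomputed member medians, 60 kept their sign. The exceptions were the *sec65*Δ-labelled array at -0.016 with median scaling and the *pab1*Δ-labelled array at -0.041 with the other 7 deletions as the reference. Many of the 62 could not change sign, so 60 overstates the check. With no floor, a higher background percentile or averaged probe sets, all counts and medians were as before, the members lying far above background. Leaving out arrays does not touch the other ratios to WT, and a pseudocount cannot reverse a ratio. Only median scaling, quantile normalization and the changed reference could alter a sign. Sizes of the medians moved more. Against the other 7 deletions, the median was -0.32 in *meu29*Δ, -0.090 in *sgf73*Δ, 0.13 in *ash2*Δ and 0.038 in *SPBC2A9.02*Δ. Median scaling gave 0.036 in *SPAC3F10.17*Δ and 0.079 in *ash2*Δ, and quantile normalization gave 0.10 in *ash2*Δ. No paired analysis was possible because each genotype had 1 array and all carried the same replicate number. With 1 array per genotype, differences of the size seen for most members cannot be told from variation between cultures or arrays.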
